A study of Mus musculus with 24 samples.

Results

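The proteasome subunit genes with the immunoproteasome were followed in the tibialis anterior, a shin muscle, of 4 Hira CKO (conditional knockout) and 4 control mice. Members were all probes whose platform symbol begins with Psma, Psmb, Psmc, Psmd, Psme, Psmf or Psmg, which gave 51 of the 26423 probes on the array, for 47 genes. The rule used names only and no measured value. They were divided into the core particle (15 probes), the immunoproteasome with its activator (5 probes), the regulatory cap with activators and inhibitors (21 probes) and assembly factors (9 probes). The remaining probe, Psmc3ip, matched by symbol only: it encodes a protein of meiotic recombination and no proteasome subunit. Psma3 and Psmb3 were not analysed here.

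The Hira CKO animals were Myf6 cre/+ and Hira flox/-, and the controls were Myf6 cre/+ and Hira flox/+. All 8 mice were 6 weeks old on a mixed C57BL6/J;129S1/SvImJ background and carried the cre driver and a floxed Hira allele. Myf6 is active in muscle fibres, so cre acts there, whereas the null allele is present in every cell of the Hira CKO animals, and the comparison is not of deletion in fibres alone. Each animal was hybridised on 3 arrays, which were averaged. The labels name neither sex nor slide, so a batch of arrays cannot be told apart from the genotype. The Hira probe, the check of the labels, had intensities of 614, 553, 524 and 543 in Hira CKO, against 569, 472, 467 and 473 in control muscle. It was not lower in Hira CKO (0.17 log2, SE 0.0871, limma adjusted p 0.193). Where that probe lies relative to the deleted exons was not given, so the directions below rest on the group labels.

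The proteasome is the main protease of the cytosol and nucleus. Its barrel-shaped core is built from outer rings of alpha subunits (Psma genes) and inner rings of beta subunits (Psmb genes), and Psmb5, Psmb6 and Psmb7 carry the cutting sites. A regulatory cap of ATPases (Psmc genes) and other subunits (Psmd genes) binds ubiquitin-tagged proteins, unfolds them and feeds them into the core. Interferon induces Psmb8, Psmb9 and Psmb10, which replace Psmb5, Psmb6 and Psmb7 in the immunoproteasome, and also Psme1 and Psme2, which form an activator of the core. The immunoproteasome cuts peptides suited to antigen presentation. In muscle the proteasome degrades contractile proteins during atrophy.

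The proteasome genes did not move as a block. Of the 51 probes, 6 were higher and 5 lower in Hira CKO at a limma adjusted p under 0.05 over all probes, the rule for a call here. That is 21.6% of the members, near the 20.6% of all probes on the array that were called (10.5% higher and 10.0% lower), so the count of called members is not a result about this gene family. The number of probes called higher on the whole array was 2783, and 1841 without Hira CKO animal 1. The median change was -0.06 log2 over members and 0.01 over all probes. The median size of a change, in either direction, was 0.15 log2 over members and 0.16 over all probes. The largest changes were falls of Psma6, Psmb8 and Psmd9 and a rise at 1 of the Psmd8 probes. Called changes of at least 2-fold numbered 4 of 51 members (7.84%), against 1.67% of all probes. The 4 animals of each group did not overlap for 14 of the 51 (27.5%), against 24.9% of all probes. The animals of a group had a median SD of 0.141 log2 over members.

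**Figure D1:**
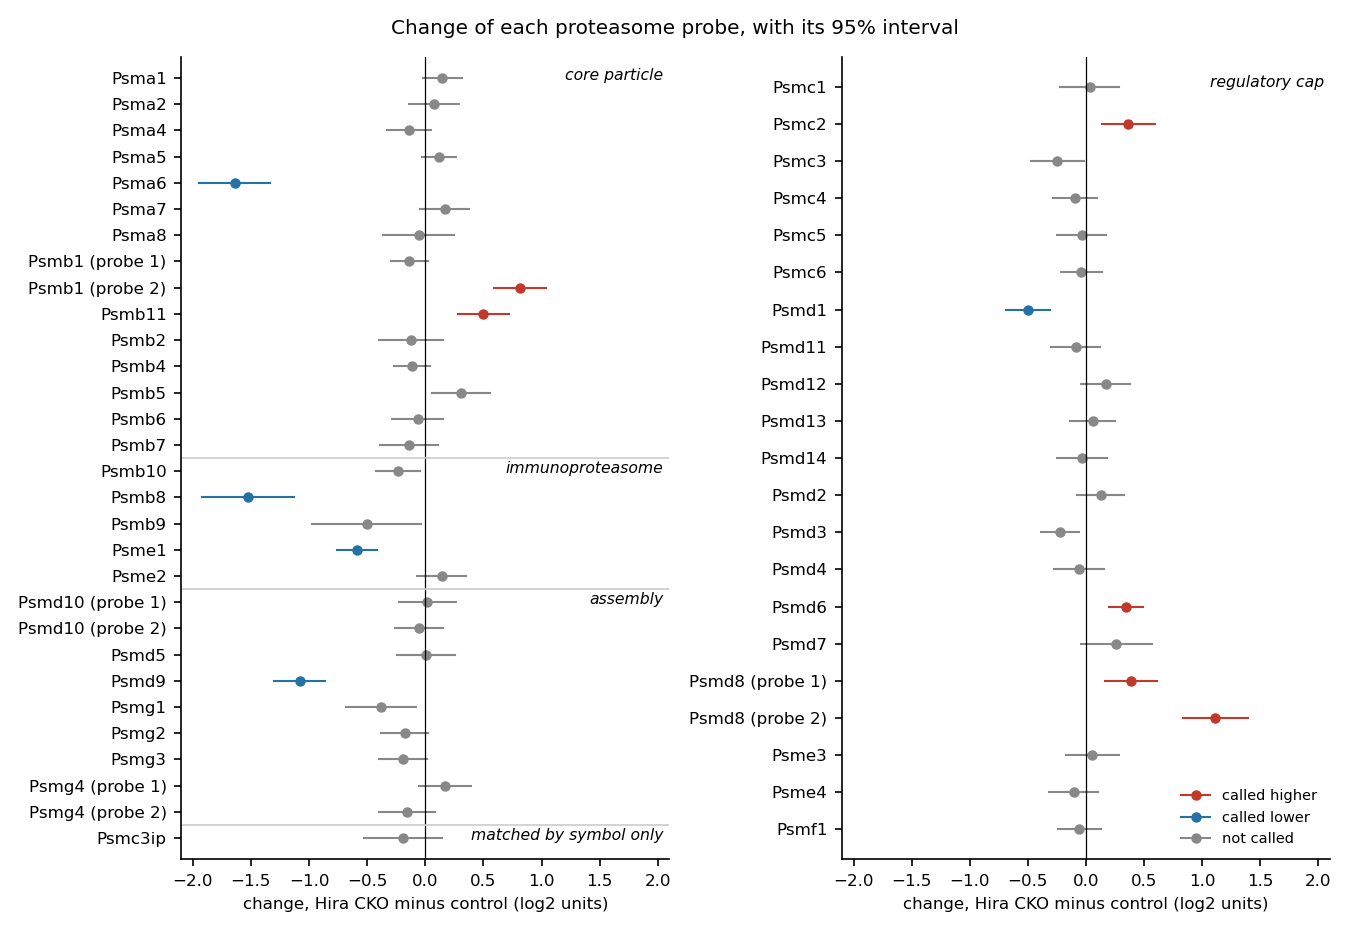
Log2 change in intensity, Hira CKO over control, for all 51 probes by subgroup, with 95% intervals from limma. Most intervals cross 0, and 11 probes passed the adjusted threshold, 6 of them to the right of 0 and 5 to the left.

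In the core particle, 2 of 15 probes were called higher and 1 lower. The other 12 lay between -0.14 and 0.31 log2. Psma6, the alpha1 subunit of the outer ring, had the largest change of all 51 members. Its intensity was 5281, 6624, 5827 and 4122 in Hira CKO, against 16593, 15851, 17044 and 16761 in control muscle. Every Hira CKO animal was below every control, and the single arrays did not overlap either, with 2490 to 7586 in Hira CKO and 14148 to 19762 in control. Psma6 fell by 1.64 log2, or 3.12-fold (SE 0.137, limma adjusted p 5.87e-05). The means were 5464 ± 1051 in Hira CKO and 16562 ± 510 in control (SD, n = 4 each). None of the other Psma probes was called.

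Psmb1, a beta subunit without a cutting site, had 2 probes that differed. The dimmer one had 5852, 6225, 6149 and 6280.3 in Hira CKO, against 3755, 3607, 3827 and 2910.3 in control, with no overlap. It rose by 0.81 log2 (SE 0.101, limma adjusted p 0.000542). The brighter one had 26747, 29616, 29631 and 27706 in Hira CKO, against 31122, 29995, 33500 and 30378 in control. The groups did not overlap there either, but the difference of -0.14 log2 was not called (adjusted p 0.205). The direction for the gene thus depends on the probe. The called falls (Psma6, Psmb8, Psme1, Psmd1 and Psmd9) were each read by 1 probe, as were the called rises of Psmb11, Psmc2 and Psmd6. For these genes no second probe could be compared. Psmb11, a beta subunit known from the thymus, gave a dim signal of 465, 458, 455 and 373 in Hira CKO, against 352, 286, 284 and 298 in control. All 4 Hira CKO animals were higher, by 0.50 log2 (SE 0.0985, limma adjusted p 0.00665).

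The constitutive cutting subunits were not called. Psmb5 had 15993, 15546, 17215 and 18796 in Hira CKO, against 11477, 12671, 15882 and 14788 in control, and the groups overlapped. The difference was 0.31 log2 (SE 0.112, 95% interval 0.06 to 0.56, limma adjusted p 0.0797). Psmb6 had 38757, 31316, 41800 and 39598 in Hira CKO, against 43245, 39001, 37757 and 36638 in control (-0.07 log2, 95% interval -0.28 to 0.15). Psmb7 had 11651, 9317, 11151 and 9344 in Hira CKO, against 10675, 12945, 9963 and 12295 in control (-0.14 log2, 95% interval -0.39 to 0.11).

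In the immunoproteasome, 2 of 5 probes were called lower (40%, against 10.0% of all probes) and none of the 5 higher. The median of the 5 was -0.51 log2. Psmb8, the interferon-induced counterpart of Psmb5, had 1236, 1458, 1239 and 845 in Hira CKO, against 3355, 4206, 3347 and 2722 in control. No animal of the groups overlapped, and neither did the arrays (576 to 1546 in Hira CKO, 2642 to 4345 in control). Psmb8 fell by 1.52 log2, or 2.88-fold (SE 0.177, limma adjusted p 0.000372). In whole muscle, fewer cells of a type and less RNA per cell cannot be told apart. Psme1, which encodes the alpha chain of the activator, had 4759, 4377, 4528 and 4669 in Hira CKO, against 7507, 6759, 7102 and 6215 in control. The arrays again did not overlap, and Psme1 fell by 0.59 log2 (SE 0.0769, limma adjusted p 0.000740).

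The other 3 immunoproteasome probes were not called. Psmb9, the counterpart of Psmb6, had 918, 809, 1012 and 682 in Hira CKO, against 1606, 1574, 991 and 845 in control, so that control animals 1 and 2 stood above the rest and animals 3 and 4 within the Hira CKO range. Its difference was -0.51 log2 (SE 0.210, limma adjusted p 0.117). Psmb10, the counterpart of Psmb7, had 5185, 5159, 4374 and 5547 in Hira CKO, against 6171, 6041, 5780.5 and 5767 in control, without overlap (-0.23 log2, SE 0.0847, adjusted p 0.0774). Psme2, the beta chain of the activator, had 216, 188, 175 and 161 in Hira CKO, against 175, 162, 177 and 151 in control (0.14 log2, SE 0.095, adjusted p 0.320). Its intensity overlapped between groups and was dim, and a related copy, Psme2b, is listed by RefSeq, so the value of this probe is uncertain.

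**Figure D2:**
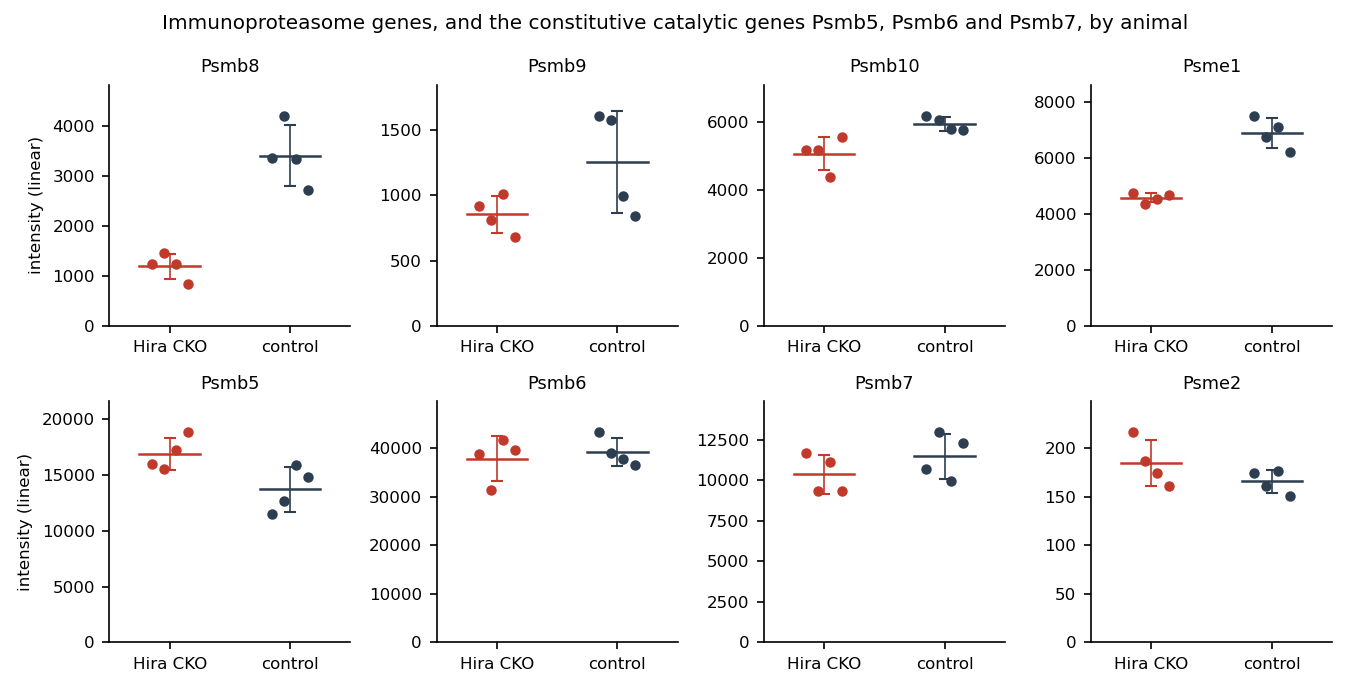
Intensity of each animal (mean of 3 arrays) for the immunoproteasome probes and their constitutive counterparts, Hira CKO left of control. The Psmb8 points of Hira CKO lie at 845 to 1458 and those of control at 2722 to 4206, whereas Psmb9 overlaps.

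Averaged over the 5 immunoproteasome probes, the log2 level relative to the control mean was -0.44, -0.49, -0.53 and -0.70 in Hira CKO, against 0.13, 0.13, -0.04 and -0.22 in control, without overlap. Without Psmb8 it was -0.19, -0.31, -0.31 and -0.38 in Hira CKO, against 0.16, 0.09, -0.05 and -0.20 in control, and the groups overlapped. Core probes averaged between -0.05 and 0.03 in Hira CKO and between -0.02 and 0.04 in control. Cap probes averaged between 0.03 and 0.13 in Hira CKO and between -0.03 and 0.05 in control. Assembly probes were also mostly lower, between -0.292 and -0.111 in Hira CKO and between -0.112 and 0.080 in control, and barely overlapped. These averages are descriptions and were not tested.

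**Figure D3:**
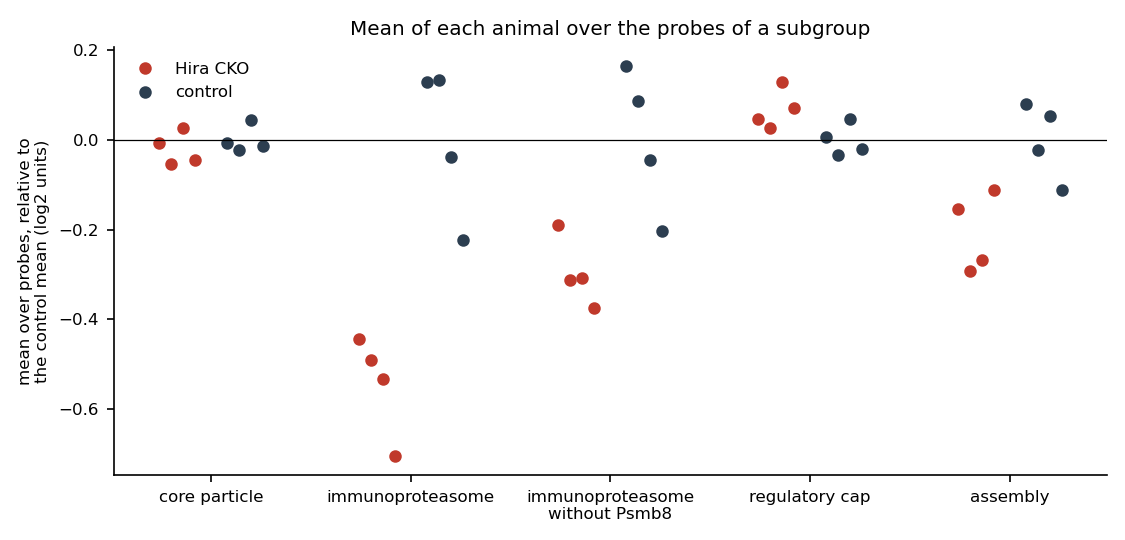
Mean log2 level of each subgroup in each animal, relative to the control mean, Hira CKO left of control. The immunoproteasome points of Hira CKO, from -0.70 to -0.44, lie below those of control, from -0.22 to 0.13.

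In the regulatory cap, 4 of 21 probes were called higher and 1 lower, and the rest lay between -0.25 and 0.26 log2. Psmd8, a subunit of the lid of the cap, was called higher at both of its probes. The dimmer probe had 6866, 6234, 5522 and 6448 in Hira CKO, against 2812, 2256, 3264 and 3273 in control, with no overlap. It rose by 1.11 log2, or 2.16-fold (SE 0.126, limma adjusted p 0.000321). The brighter probe had 17449, 17367, 15547 and 15963 in Hira CKO, against 11463, 11121, 14489 and 13980.3 in control. The groups did not overlap here either. It rose by 0.39 log2 (SE 0.102, adjusted p 0.0244), but its call was lost without Hira CKO animal 1 or 2 or control animal 1 or 2, with an adjusted p of at most 0.0679.

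Psmd6, another lid subunit, had 25559, 25338, 25748 and 26080 in Hira CKO, against 18887, 20368, 21297 and 20301 in control. All Hira CKO values were higher, by 0.35 log2 (SE 0.0662, limma adjusted p 0.00584). Psmc2, a cap ATPase, had 48972, 42246, 53890.1 and 44083 in Hira CKO, against 42791, 34755, 34761 and 34355 in control. Control animal 1 overlapped the Hira CKO range. The rise of 0.37 log2 (SE 0.103, adjusted p 0.0329) was not called without Hira CKO animal 1 or 3, or control animal 2, 3 or 4 (adjusted p at most 0.0866). Psmd1, the large scaffold subunit of the cap, had 21150.1, 21159, 24287 and 19029 in Hira CKO, against 29277, 30619, 30743 and 29477 in control. The groups did not overlap, and Psmd1 fell by 0.50 log2 (SE 0.0846, limma adjusted p 0.00321). Psmd3, a lid subunit, was also lower in every Hira CKO animal but was not called (-0.22 log2, adjusted p 0.0546). Psmf1, an inhibitor of the core, gave 53.0 to 64.6 in Hira CKO and 54.5 to 68.9 in control, near the pseudocount of 16 added before taking log2, and a change in it could not be resolved well.

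Among the assembly factors, 1 of 9 probes was called lower and none higher, and the others lay between -0.38 and 0.17 log2. Psmd9, a chaperone that helps the ATPase ring of the cap to assemble, had 355, 376, 346 and 292 in Hira CKO, against 703, 811, 784 and 667 in control. The groups did not overlap, in animals or in arrays (242 to 393 in Hira CKO, 622 to 837 in control). Psmd9 fell by 1.08 log2, or 2.12-fold (SE 0.0984, limma adjusted p 9.01e-05). Psmg1, a chaperone of the outer ring, was not called (-0.38 log2, adjusted p 0.0738).

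Of the 40 members that were not called, 6 had an unadjusted p under 0.05: Psmb5, Psmb9, Psmb10, Psmc3, Psmd3 and Psmg1. Psmc3, a cap ATPase, was at -0.25 log2 (limma adjusted p 0.113), and Psmd7, a lid subunit without such a p, was at 0.26 log2 (adjusted p 0.205). Besides Psmb1 and Psmd8, the genes with 2 probes were the assembly factors Psmd10 and Psmg4, and neither was called at either probe. Psmd10, a chaperone also known as gankyrin, was at 0.02 and -0.06 log2, and Psmg4, a chaperone of the outer ring, at 0.17 and -0.16 log2. Psma5, an outer ring subunit, had animals that did not overlap at a dim 57.0 to 61.9 in Hira CKO and 50.3 to 54.8 in control, and was not called. Psma8, an outer ring subunit of the testis, gave 186 to 240.2 in Hira CKO and 168 to 248 in control.

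**Figure D4:**
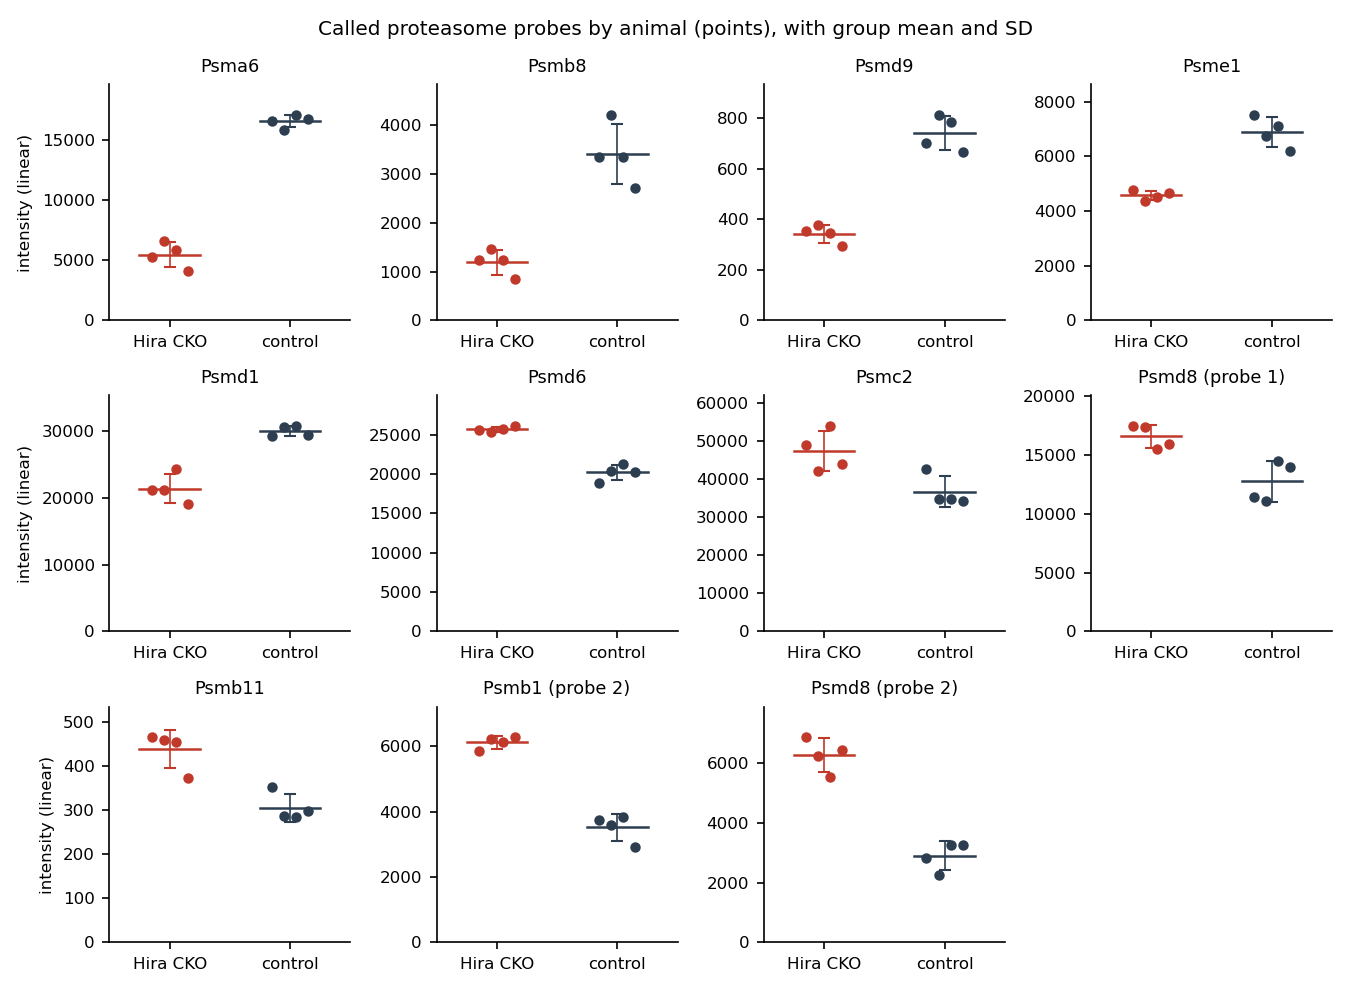
Intensity of each animal for the called members, Hira CKO left of control. Psma6 lies at 4122 to 6624 in Hira CKO and 15851 to 17044 in control, and only Psmc2 among them has animals that overlap.

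The promoters of 39 of the 47 genes were found in RefSeq (GRCm38.p6), as 42 windows from 250 bases before to 50 after a start site. The promoters of 5 genes with large called changes are shown, chosen after their values were seen (Psmb1 has no entry in the table): Psmb8 (chr17:34197945-34198244, plus strand), Psme1 (chr14:55578244-55578543, plus strand), Psma6 at both starts (chr12:55383972-55384271 and chr12:55398575-55398874, plus strand), Psmd9 (chr5:123227940-123228239, plus strand) and Psmd8 (chr7:29180624-29180923, minus strand). Each is written 5′ to 3′ along its gene, and capitals mark matches on either strand to any of 5 motifs.
Psmb8: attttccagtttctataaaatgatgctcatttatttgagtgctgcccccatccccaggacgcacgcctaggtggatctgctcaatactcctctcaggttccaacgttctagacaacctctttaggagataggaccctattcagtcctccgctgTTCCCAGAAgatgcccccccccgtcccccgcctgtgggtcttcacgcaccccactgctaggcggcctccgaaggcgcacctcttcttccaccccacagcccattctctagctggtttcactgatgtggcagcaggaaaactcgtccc
Psme1: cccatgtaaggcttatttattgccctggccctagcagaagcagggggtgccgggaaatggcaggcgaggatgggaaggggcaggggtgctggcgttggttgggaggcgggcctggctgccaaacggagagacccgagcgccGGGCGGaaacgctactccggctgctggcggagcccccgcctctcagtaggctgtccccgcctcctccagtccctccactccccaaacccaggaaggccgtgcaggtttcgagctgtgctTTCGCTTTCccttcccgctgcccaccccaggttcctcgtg
Psma6 start 1: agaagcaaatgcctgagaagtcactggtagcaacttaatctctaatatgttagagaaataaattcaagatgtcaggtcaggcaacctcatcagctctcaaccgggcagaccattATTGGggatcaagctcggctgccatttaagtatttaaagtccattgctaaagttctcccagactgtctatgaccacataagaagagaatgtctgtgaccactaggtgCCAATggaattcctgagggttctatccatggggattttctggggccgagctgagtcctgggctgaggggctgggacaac
Psma6 start 2: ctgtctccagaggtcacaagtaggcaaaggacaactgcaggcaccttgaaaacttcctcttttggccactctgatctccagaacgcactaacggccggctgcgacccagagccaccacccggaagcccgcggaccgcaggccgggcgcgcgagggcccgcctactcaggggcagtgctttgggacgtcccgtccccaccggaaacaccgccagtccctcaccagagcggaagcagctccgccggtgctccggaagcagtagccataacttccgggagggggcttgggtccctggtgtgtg
Psmd9: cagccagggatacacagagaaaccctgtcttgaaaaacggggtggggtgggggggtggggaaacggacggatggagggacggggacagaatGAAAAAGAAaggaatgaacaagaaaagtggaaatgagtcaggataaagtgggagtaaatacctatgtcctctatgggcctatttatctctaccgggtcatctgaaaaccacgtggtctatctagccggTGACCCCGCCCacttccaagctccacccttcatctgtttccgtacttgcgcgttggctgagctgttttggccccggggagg
Psmd8: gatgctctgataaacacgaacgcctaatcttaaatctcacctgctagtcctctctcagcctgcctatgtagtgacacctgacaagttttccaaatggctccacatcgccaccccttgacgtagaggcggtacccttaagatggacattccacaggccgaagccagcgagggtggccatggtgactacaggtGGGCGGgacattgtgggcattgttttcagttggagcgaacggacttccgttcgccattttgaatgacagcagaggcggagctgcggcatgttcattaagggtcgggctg
The motifs were GAAANNGAA, an interferon response element core, TTCNNNGAA, an interferon-gamma activated site, TGACNNNGC, an antioxidant response element core, CCAAT and GGGCGG. GAAANNGAA was held by 6 of 42 member promoters (14.3%) and by 8.56% of all 32851 promoters. TTCNNNGAA was held by 3 (7.14%), against 8.3% of all. TGACNNNGC was held by 6 (14.3%), against 12.4%. CCAAT was held by 13 (31%), against 37.4%, and GGGCGG by 24 (57.1%), against 35.7%. Psmb8 held TTCNNNGAA at position -97 from the start. Psme1 held GGGCGG at -109 and GAAANNGAA on the opposite strand at 11. Psmd9 held GAAANNGAA at -159 and TGACNNNGC at -31, overlapping GGGCGG at -26 on the opposite strand. Psmd8 held GGGCGG at -59. Psma6 held CCAAT at -29 and -136 at its first start and none of the 5 motifs at its second. A match is a description of these letters.

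Of 30 partner genes of ubiquitin and the proteasome, 21 were measured, and at the brightest probe of each gene 1 was called higher and 5 lower. The background, all 17742 named genes at their brightest probe, had 11.0% called higher and 10.2% lower, 21.2% either way. The median change of the 21 partner genes was -0.03 log2. Adrm1, a ubiquitin receptor of the cap, was higher, at 29204 ± 906 in Hira CKO and 23226 ± 658 in control (0.33 log2, limma adjusted p 0.00614). Nfe2l1, a transcription factor that induces proteasome genes when the proteasome is impaired, had 9396, 13139, 11596 and 9253 in Hira CKO, against 14051, 15042, 17274 and 18725 in control. It fell by 0.59 log2 (SE 0.133, adjusted p 0.0124), with no overlap. Uba6, a ubiquitin-activating enzyme, fell by 0.69 log2 (adjusted p 0.00431), with means of 226 ± 40.4 in Hira CKO and 369 ± 39.7 in control. Ubqln2 and Ubqln4, which shuttle ubiquitin-tagged proteins, fell by 0.30 and 0.26 log2, and Ufd1, a partner of the segregase Vcp, fell by 0.30 log2 (adjusted p 0.0317, 0.0192 and 0.0186). The Ubqln2 call was lost without any 1 of Hira CKO animals 1, 2 and 3 or control animals 1, 2 and 3, and that of Ubqln4 without Hira CKO animal 1 or control animal 2 or 3. The Ufd1 call was lost without control animal 3. Pomp, the maturation factor of the core, was at -0.03 log2 (adjusted p 0.820).

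Of 20 antigen processing and interferon genes, 16 were measured, with 3 called lower and none higher at the brightest probe and a median of -0.18 log2. Among all 17742 named genes at their brightest probe, 10.2% were called lower and 11.0% higher, 21.2% either way. Ifngr2 was not called at its brighter probe (-0.16 log2, limma adjusted p 0.208). At its dimmer probe it was called lower (-0.54 log2, limma adjusted p 0.00112). Irf9, a subunit of the interferon-activated transcription factor ISGF3, was 479 ± 42.6 in Hira CKO and 688 ± 22.8 in control (-0.51 log2, limma adjusted p 0.00183). Irf7, an interferon regulatory factor, had 772, 633, 646 and 628 in Hira CKO, against 1226, 1156, 791 and 834 in control (-0.55 log2, adjusted p 0.0258). Its call was lost without any 1 of Hira CKO animals 2, 3 and 4 and control animals 1 and 2. Isg15, a ubiquitin-like protein, fell by 0.63 log2 (adjusted p 0.0374), and its call was lost without Hira CKO animal 3 or 4 or control animal 2, 3 or 4. Tap1 and Tap2 form the peptide transporter and lie between and beside Psmb9 and Psmb8 on chromosome 17. Tap1 had 419, 314, 487 and 283 in Hira CKO, against 765, 1034, 416 and 484 in control (-0.77 log2, adjusted p 0.0711, not called). Tap2 had 1684, 1612, 1494 and 1280.0 in Hira CKO, against 2192, 2015, 1719 and 1727 in control (-0.33 log2, adjusted p 0.0607, not called). Control animals 1 and 2 held the highest values of Psmb8, Psmb9, Psmb10, Tap1, Tap2 and Irf7 among the 8 animals, a comparison chosen after seeing the values. This was not so for called genes of the same groups. Control values, in order of animal, were 668, 705, 670 and 711 for Irf9 and 204, 334, 314 and 326 for Isg15. Those of Psme1 were 7507, 6759, 7102 and 6215.

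**Figure D5:**
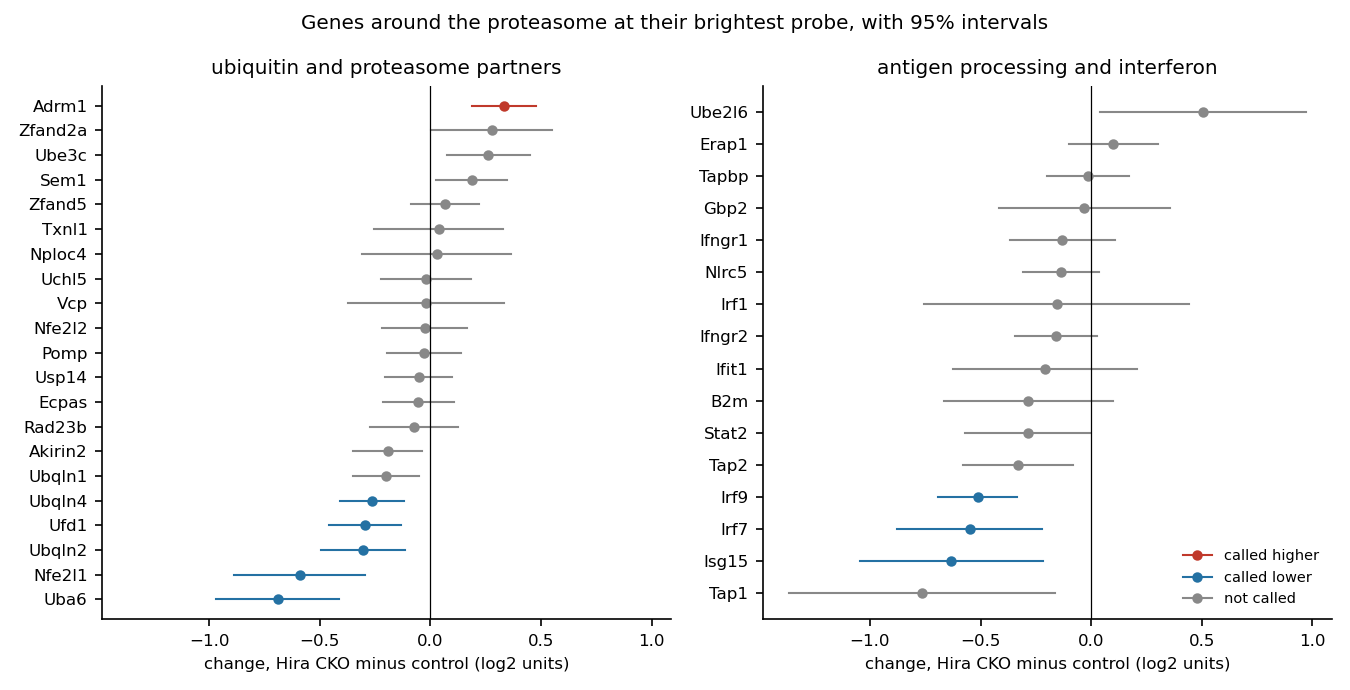
Log2 change, Hira CKO over control, of the partner genes and of the antigen processing and interferon genes at their brightest probe, with 95% intervals from limma. Adrm1 is called higher, and 5 partner genes and 3 interferon genes are called lower.

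Other cell types can carry these genes, so marker lists were read beside the results, at the brightest probe of each gene. For comparison, 11.0% of all 17742 named genes were called higher at that probe and 10.2% lower, 21.2% either way. Of 21 leukocyte markers, 18 were measured, 4 called higher (Cd3e, Cd4, Itgam and Cd79b) and 3 lower (Cx3cr1, Itgax and Cd74), with a median of 0.02 log2. Their summed intensity was 12744 to 15542 in Hira CKO and 12545 to 16265 in control. Without Cd74 the sum was 9471 to 12225 in Hira CKO and 8389 to 11249 in control, and the groups overlapped in both sums. Cx3cr1, a macrophage receptor, was 60.5 ± 5.83 in Hira CKO and 217 ± 18.5 in control. Cd74 was called at its brightest probe (-0.55 log2). It was not called at its other probes (-0.17 and -0.11 log2, limma adjusted p 0.458 and 0.278). Ptprc, the common leukocyte marker, was not called (-0.25 log2, adjusted p 0.0959). Of 10 endothelial markers, all measured, 1 was higher and 3 lower, with a median of -0.17 log2, and their sum was 49373 to 54908 in Hira CKO and 60206 to 76825 in control. Most of that gap was in 1 bright probe, Egfl7, at 19234 ± 3135 in Hira CKO and 30882 ± 5196 in control. The other 9 summed to 31660 to 33889 in Hira CKO and 32216 to 38406 in control and overlapped, and Eng was the marker called higher. Kdr was called lower without overlap, at 1484 ± 234 in Hira CKO and 2237 ± 83.8 in control (-0.60 log2, limma adjusted p 0.00351). Pecam1 was called lower at its brightest probe (-0.36 log2, limma adjusted p 0.0446) but not at its other probes (adjusted p 0.253 and 0.157). Of 13 fibre markers, 8 were measured, none was called higher and 2 were called lower (Acta1 and Ckm), and their sum was 1134593 to 1220252 in Hira CKO and 1224825 to 1406857 in control. Without Acta1 the sums overlapped, at 1021280 to 1104115 in Hira CKO and 1070872 to 1220337 in control. No marker was at 0 in any animal. The part of these shifts in the falls of Psmb8 and Psme1 was not tested.

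An earlier look at the array had shown stretches of probe numbers with many large falls. Within 500 probe numbers of each called member, 6.67% to 12.8% of probes were called lower, against 10.0% of all probes. The share called higher was 9.91% (around Psma6) to 15.6% (around Psmc2), against 10.5% of all probes. Probes with a fall of at least 2-fold made up 1.40% of those around Psma6, 0.7% around Psmb8 and 0.556% around Psmd9, against 1.13% of all probes.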

How the data were processed

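The values deposited by the authors were linear intensities of 26423 probes on 24 arrays. Array medians of 431.5 to 433.5 show that they had been normalized. Per the labels' protocols, total RNA was extracted with Trizol and 5 micrograms were labelled with Cy5. Scanner and software are not given in the sources used here. Without background signals or slides, another background correction and a slide block could not be run. Negative deposited intensities were set to 0, 16 was added and log2 was taken. On this log2(value + pseudocount) scale the changes of dim probes are understated.

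Each animal's 3 arrays were averaged on that scale, and 4 Hira CKO animals were compared with 4 controls in limma 3.58.1 (lmFit, eBayes) in R 4.3.3, with p adjusted by Benjamini-Hochberg over every probe and called under 0.05. Nothing in the labels says how the animals were related, and precision is limited by the number of animals, 4 a group. Probes were named from the platform annotation, with symbols updated through RefSeq (GRCm38.p6), and 20377 had a symbol. Of these, 18213 were current, 2126 were synonyms and 38 were kept, while 6046 probes are unnamed. Probe 1 of a gene is its brightest. The fit was tested on simulated data. The members and lists were chosen with earlier results of these data known.

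Named genes were the called members, all immunoproteasome probes, Psmb5, Psmb6 and Psmb7, further probes of genes with a called probe, Tap1, Tap2, and up to 6 called genes of each pathway list. Other genes named with a value were chosen after their values were seen. Over all probes, animals with the same number in both groups deviated from their group means with correlations of 0.30, 0.09, -0.06 and 0.07. These values cannot tell whether the numbers pair the animals, because single genes can run in parallel where the whole array does not. The main fit did not use the numbers, and a fit with the number as a block is given below. Alternatives were pseudocounts of 1 and 50, a filter on the lowest 30% of probes, cyclic loess, all arrays with the animal as a random block, array medians, a trended robust fit, the animal number as a block, other thresholds, and each animal left out. Figures were drawn with matplotlib 3.10.9.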

Additional observations from a re-analysis of the deposited data

Results flagged for a closer look

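In 11 of 102 groups of 4 animals (51 probes in both groups), 1 animal stood far from the other 3 by Dixon's criterion, which chance alone meets in about 1 in 20 groups. In Hira CKO, Psmb11 was 373 in animal 4 and 455 to 465 in the others, Psmd2 was 26133 in animal 4 and 20211 to 20766 in the others, the brighter Psmg4 probe was 2423 in animal 3 and 2970 to 3056 in the others, and Psmc3ip was 342 in animal 3 and 529 to 569 in the others. In control, animal 1 stood apart for Psma5 (50.3, others 54.2 to 54.8), Psma8 (168, others 241 to 248), Psmc2 (42791, others 34355 to 34761) and Psmc3 (7593, others 6029.8 to 6204). Psmd12 was 8611 in control animal 2 and 9998 to 10180 in the others. Psmg3 was 3278 in control animal 4 and 3800.4 to 3836 in the others, and the brighter Psmg4 probe was 2929 in control animal 3 and 2381 to 2434 in the others.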

How the results depend on the processing

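Members called lower numbered 5, and 8 at an adjusted p under 0.10 and 8 with the 24 arrays and the animal as a random block. Under these 2 settings 29.4% of members were called either way, against 29.4% and 27.5% of all probes. At an adjusted p under 0.01, 4 members were higher and 5 lower, or 17.6% of members against 9.12% of all probes. This difference in shares was not tested. Over all probes, 1113 were higher and 1296 lower at an adjusted p under 0.01, and 1841 higher without Hira CKO animal 1, against 2783 and 2649. Leaving out 1 animal gave 4 to 6 called higher and 5 to 7 lower, with 17.6% to 25.5% of members called, against 13.9% to 19.4% of all probes. With the brightest probe of each gene, chosen after seeing the data, 4 were higher and 5 lower (19.1% of 47, against 21.2%). With the animal number as a replicate block, members gave 6 higher and 5 lower, and all probes 2505 higher and 2420 lower. In this block the brighter Psmd8 probe (adjusted p 0.0557), Ubqln2 (0.0642) and Isg15 (0.0570) were not called, and Psmb5 (0.0464) and Tap2 (0.0269) were. With array medians Ubqln2 (0.0629) and Isg15 (0.0515) were not called. The random block also called Psmb5 (0.0109), Psmb9 (0.0127), Tap1 (0.0045) and Tap2 (0.0031). Psma6, Psmb8, Psmd9, Psme1, Psmd1, Psmd6, Psmb11 and the dimmer probes of Psmd8 and Psmb1 kept their call in all 16 alternatives fitted. Psmb6 lay between -0.11 and 0.019 log2 over the fits without 1 animal, with 0.019 without Hira CKO animal 2. Without 1 animal, Psmb9 was called without control animal 4 (0.0392), Psmb10 without Hira CKO animal 4 (0.0488), and Psmb5 (0.0495) and Tap1 (0.0353) without control animal 3. Dim signal limits Psma5 and Psmf1, which the filter on dim probes left out.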
